A study of Danio rerio with 8 samples.

Results

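Hypoxic zebrafish embryos at the 8-somite stage were compared with hypoxic embryos at the gastrula stage, to show which stage differences are seen when both stages have met low oxygen. The comparison rests on 3 of the 8 samples of the series, chosen by their labels. These are 1 array of hypoxic segmentation embryos (replicate 1; 8 somites, 12 h of development) and 2 arrays of hypoxic gastrula embryos (replicates 1 and 2; shield stage, 6 h). The second hypoxic segmentation sample has a column without values and was not used here. The other 4 samples, 2 normoxic segmentation and 2 normoxic gastrula arrays of the same ages, served to set the hypoxic difference beside the normal one. All embryos were wildtype and whole, grown at the same temperature. Per the labels' protocols, hypoxic embryos were held under 1% oxygen in a chamber flushed with nitrogen, and per the series' design text the exposure lasted 1 to 2 h and a sample pooled 12 to 15 embryos, freed of the chorion and picked by hand for matching stage. Each stage thus had its own exposed embryos, and the exposure did not span the time between the stages.

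The shield-stage gastrula has activated its own genome but still holds maternal transcripts, and its germ layers are being laid down. By the 8-somite stage the anterior body segments have formed, and the neural plate, epidermis, endoderm and yolk syncytial layer express genes of their later fates. Hypoxia acts on embryonic cells through the hypoxia-inducible factor (HIF) and, where protein folding is disturbed, through heat shock factor. Embryos that meet low oxygen can slow or arrest their development.

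Values are log2 signals of array rows. Of 37157 rows, 2663 with RefSeq transcript identifiers matched 1 gene symbol, covering 2650 genes, and only these are named here. The 3 hypoxic arrays had medians of 8.62 in segmentation embryos and 8.69 and 8.74 in gastrulae, with interquartile ranges of 2.51 in segmentation embryos and 2.31 and 2.18 in gastrulae. The normoxic arrays had wider ranges, from 2.75 to 3.02. Over all rows the hypoxic segmentation array correlated with the hypoxic gastrula arrays at Pearson's r = 0.923 and 0.906, below the r of 0.973 between the gastrula replicates and the r of 0.973 and 0.953 with the normoxic segmentation arrays. In whole embryos, fewer cells of a type and less RNA per cell cannot be told apart.

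A difference with a standard error (SE) comes from a linear model (limma) over all 7 arrays, with the labelling dye (Cy3 or Cy5) as a covariate. The lone segmentation array carries Cy5 and the gastrula pair 1 of each dye, so an adjusted difference can depart from the plain one. The spread comes from the replicates of the other groups, and the lone array is assumed to vary like them. Rose, fell, called and passed refer to this test, which has no replicate of hypoxic segmentation embryos behind it. The 3 hypoxic arrays on their own give a description. Nothing in the labels says how the replicates were separated beyond the word biological. The p-values thus rest on the spread between these replicate arrays, with none from hypoxic segmentation embryos. Beside this test, a description without a test counts rows whose segmentation value lay at least 1 log2 unit (2-fold) above or below both gastrula values.

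The secreted follistatin-like gene fstl1a (NM_001017860) had 12.85 on the segmentation array, against 9.59 and 8.68 on the gastrula arrays. That is 4.01 ± 0.39 (SE) on the log2 scale, or 16.1-fold, the largest rise of a named gene (n = 1 and 2 arrays; limma adjusted p = 0.024). Among the next in size were a calcium-handling enzyme gene (rgn), a Hox cofactor gene (meis2b), an inducible chaperone gene (hsp70.3) and a somite homeobox gene (meox1). In the other direction nnr (NM_001029947), on the list of maternal and early zygotic genes, had 9.94 on the segmentation array, against 14.1 and 13.99 on the gastrula arrays. It fell by 3.78 ± 0.39, or 13.7-fold (limma adjusted p = 0.026). Both genes were separated from the gastrula values by several times the gap between the gastrula replicates.

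In all, 733 rows (1.97%) were higher and 157 (0.423%) lower in hypoxic segmentation embryos at an adjusted p under 0.05. Among the 2650 named genes 24 (0.906%) were higher and 5 (0.189%) lower. By the description, 2141 rows (5.76%) lay 1 log2 unit above both gastrula arrays and 916 (2.47%) below both. Among named genes 90 (3.40%) lay above and 40 (1.51%) below. The calls rest on few arrays and on the model. With a replicate block beside dye, which left 1 residual degree of freedom, no row passed under hypoxia. Leaving out either hypoxic gastrula array, or either normoxic segmentation array, left 1 residual degree of freedom and 0 calls in limma, with 2762 to 5086 rows at an unadjusted p under 0.05, where all 7 arrays gave 5779. The fit on the 3 hypoxic arrays alone also had 0 calls, with 5288 such rows. Leaving out either normoxic gastrula array, which also left 1 residual degree of freedom, gave more calls. The array left in that group is fitted exactly and adds nothing to the spread. Both omissions thus give the same hypoxic result and are 1 check. The same holds for leaving out either normoxic segmentation array. All 29 called genes kept their direction in each of these fits. Each fit holds the same segmentation array, which lay beyond both gastrula values for these genes, so the direction could hardly change.

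The gene zgc:136410 (NM_001040294) had 15.52 in segmentation embryos, against 12.34 and 11.85 in gastrulae, a rise of 3.59 ± 0.25 (limma adjusted p = 0.016). The regucalcin gene rgn, which encodes a calcium-binding enzyme, had 11.43 in segmentation embryos, against 8.11 and 7.82 in gastrulae, a rise of 3.54 ± 0.45. The homeobox gene meis2b, a Hox cofactor of the developing brain and mesoderm, had 11.51 in segmentation embryos, against 8.6 and 8.03 in gastrulae, a rise of 3.43 ± 0.27. In each of these the segmentation value stood well clear of a close gastrula pair.

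The somite homeobox gene meox1 had 13.61 in segmentation embryos, against 11.58 and 9.76 in gastrulae, a rise of 3.41 ± 0.50. Its gastrula values differ from each other by nearly as much as the nearer of them lies below the segmentation value, and the plain difference was 2.94. The gene rcn3, encoding a calcium-binding protein of the endoplasmic reticulum, had 12.31 in segmentation embryos, against 9.82 and 9.01 in gastrulae (3.08 ± 0.37). The selenoprotein gene selenow2b had 10.97 in segmentation embryos, against 9.1 and 8.32 in gastrulae (2.54 ± 0.36). That the groups did not overlap was required by the naming rule. For all 3 genes hypoxic gastrula replicate 2 was the lower of the pair.

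Further rises were those of zgc:162608 (3.05 ± 0.28), of gatm, the first enzyme of creatine synthesis (2.5 ± 0.33), of pla2g12b, a phospholipase-related gene of lipoprotein-making tissues (2.43 ± 0.25), and of ripply1, a corepressor at somite boundaries (2.37 ± 0.24). Below the naming limit, the other 12 called genes lay between 1.65 and 2.29. Among them were fzd10, a Wnt receptor gene (2.29 ± 0.25), and rpn2, of the complex that adds sugar chains to secreted proteins (1.99 ± 0.29). Also among them, and chosen after their values were seen, were mpc2a, of the mitochondrial pyruvate carrier (2.14 ± 0.31), and the actin-bundling gene pls3 (2.12 ± 0.23). Adjusted p over the 24 genes ran from 0.016 to 0.049. Without dye, meox1 (limma adjusted p = 0.1), selenow2b (0.062) and pls3 (0.052) did not pass.

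**Figure D1:**
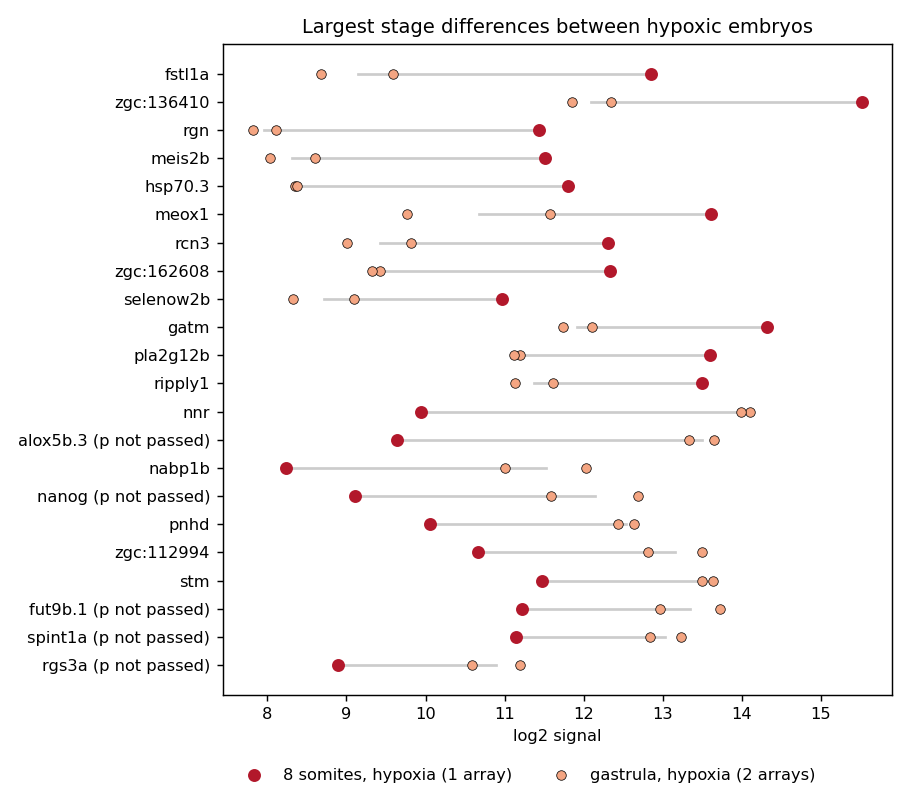
Log2 signal (horizontal axis) on the hypoxic segmentation array (dark red) and the 2 hypoxic gastrula arrays (light points) for the genes taken by the naming rule, 12 higher and 10 lower at segmentation; grey lines run to the gastrula mean. The naming rule required the segmentation point to lie outside the gastrula pair, so that separation is no result. Of the lower genes 5 did not pass the test.

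On the lower side 5 named genes passed. The gene nabp1b, whose human relative binds single-stranded DNA, had 8.23 in segmentation embryos, against 12.03 and 11.01 in gastrulae, a fall of 3.04 ± 0.44. Pinhead (pnhd), a secreted factor gene known in frogs from gastrula mesoderm, had 10.05 in segmentation embryos, against 12.64 and 12.44 in gastrulae, and fell by 2.40 ± 0.23. The gene zgc:112994 fell by 2.31 ± 0.32, and stm (starmaker), known later for the matrix of the ear stones, fell by 2.1 ± 0.25 (limma adjusted p for these 4 from 0.024 to 0.046). Each of them, and nnr, was also lower at segmentation in normoxia, by 1.70 to 2.56.

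Some large differences did not pass. The lipoxygenase gene alox5b.3 had 9.64 in segmentation embryos, against 13.65 and 13.33 in gastrulae, a difference of -3.73 ± 0.70 (limma adjusted p = 0.083). The pluripotency factor gene nanog had 9.11 in segmentation embryos, against 12.69 and 11.59 in gastrulae (-2.83 ± 0.45, limma adjusted p = 0.059). The glycosyltransferase gene fut9b.1 (-1.97 ± 0.35), the protease inhibitor gene spint1a (-1.94 ± 0.47) and the G-protein regulator gene rgs3a (-1.82 ± 0.37) likewise lay over 1 log2 unit below both gastrula values. The rows with the widest differences of all, 6.63 and -5.51, carry no gene name here.

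Gene lists were then read against these shares. The lists and their members were chosen with earlier results of these data known, so their shares are descriptions. Over all 2650 named genes the median difference was -0.11, with 958 above 0 and 1692 below. A list with most members below 0 thus shares that with all named genes. Of 646 genes in 36 lists, 9 rose and 1 fell, where 0.906% of all named genes rose and 0.189% fell. Those 10 genes fall in 10 of the lists, and the other 26 lists had no member past the threshold. The median of all genes moved to -0.06 after quantile normalization again and to -0.01 after median centring.

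Of 9 measured maternal and early zygotic genes, 1 fell (nnr) and 0 rose, 8 lay below 0, and 4 lay 1 log2 unit below both gastrulae, with a median of -0.84 (-0.93 after quantile normalization again). Over all named genes 0.189% fell and 1.51% lay that far below both gastrulae. This list was chosen with earlier results of these data known, so the contrast is no test of it. Beside nnr and nanog, the 2 others of the 4 genes were map1lc3c and zp2.2. The first is an autophagy gene placed on the list for its early expression (-1.71 ± 0.35), the second of the egg coat (-1.24 ± 0.29). The 1 member above 0 was the neural-plate gene sox19b, named after its values were seen, with 12.26 in segmentation embryos, against 11.32 and 11.03 in gastrulae (1.1 ± 0.29, limma adjusted p = 0.17). In normoxia, where 3.81% of all named genes were called higher and 3.21% lower, 4 of the 9 fell, with a median of -1.16.

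Of 6 measured genes of the organizer, germ layers and mesendoderm, 0 passed, with a median of -0.26. Over all named genes 0.906% rose and 0.189% fell. The apelin receptor gene aplnrb, of mesendoderm migration, had 10.61 in segmentation embryos, against 11.36 and 11.07 in gastrulae (-0.50 ± 0.33). The zinc-finger gene blf had 10.03 in segmentation embryos, against 11.05 and 10.08 in gastrulae (-0.42 ± 0.52), almost touching the lower of them. In normoxia 3 of the 6 fell (3.21% of all named genes did), with a median of -0.76, aplnrb differing by -1.37 and blf by -1.96. The difference between these stage differences did not pass for either gene.

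Of 34 measured somite and muscle genes, 2 rose (meox1 and ripply1) and 0 fell, and 3 lay 1 log2 unit above both gastrulae, the other being twist2, a mesenchyme regulator gene (1.29 ± 0.36, not passing). Skeletal actin acta1b had 12.21 in segmentation embryos, against 11.25 and 10.99 in gastrulae (1.21 ± 0.30, limma adjusted p = 0.15). Over all named genes 0.906% rose and 3.40% lay 1 log2 unit above both gastrulae. The somite and muscle list's median was -0.01, with 17 members on each side of 0. In normoxia 5 of the 34 rose (3.81% of all named genes did), and the median was 0.02.

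Of 18 neural genes 3 lay 1 log2 unit above both gastrulae, where 3.40% of all named genes did. Of the 18, 1 rose, meis2b, where 0.906% of all named genes rose. The related meis3 had 9.97 in segmentation embryos, against 8.73 and 8.46 in gastrulae (1.42 ± 0.25, limma adjusted p = 0.077). The zinc-finger genes sp8a and fezf2, of the anterior brain, differed by 1.26 ± 0.26 and 0.88 ± 0.26 and did not pass. The median of the list was -0.06 (0.05 after quantile normalization again). Of 8 neural crest genes 0 passed and 7 lay below 0, where 1692 of all 2650 named genes did. The median of these 8 was -0.38. The exception, prdm1a, had 10.25 in segmentation embryos, against 8.81 and 9.48 in gastrulae (1.04 ± 0.36), and pax7a had 10.41 in segmentation embryos, against 11.14 and 11.01 in gastrulae (-0.63 ± 0.47).

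Of 12 kidney, gut and liver genes 1 rose, the fatty acid carrier gene fabp1b.1, with 15.28 in segmentation embryos, against 13.83 and 13.58 in gastrulae (1.76 ± 0.25, limma adjusted p = 0.045). This call was lost without dye (limma adjusted p = 0.052) and after quantile normalization again (0.07). The uric acid pathway gene uraha had 10.77 in segmentation embryos, against 8.21 and 9.3 in gastrulae (1.90 ± 0.48, not passing), and the list's median was 0.44. Of 24 cytochrome P450 genes 1 rose, cyp2aa3 (1.94 ± 0.28), and 5 lay 1 log2 unit above both gastrulae, where 3.40% of all named genes did. These include cyp2aa4 (2.12 ± 0.42) and cyp2aa9 (2.06 ± 0.35), relatives of cyp2aa3 whose rows may also bind each other's transcripts. The call of cyp2aa3 (limma adjusted p = 0.047) was lost after quantile normalization again (0.065), with an intensity trend and with a robust prior. The median of the P450 list was 0.14. Of all named genes 0.906% rose, the share to set beside the 1 riser of the kidney, gut and liver list and of the P450 list. Of 9 genes of epidermis, enveloping layer and hatching gland 0 passed. The secretory-cell gene agr1 had 14.23 in segmentation embryos, against 13.26 and 12.79 in gastrulae (1.3 ± 0.45), while spint1a and the claudin gene cldng (-0.77 ± 0.33) lay below both gastrula values.

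**Figure D2:**
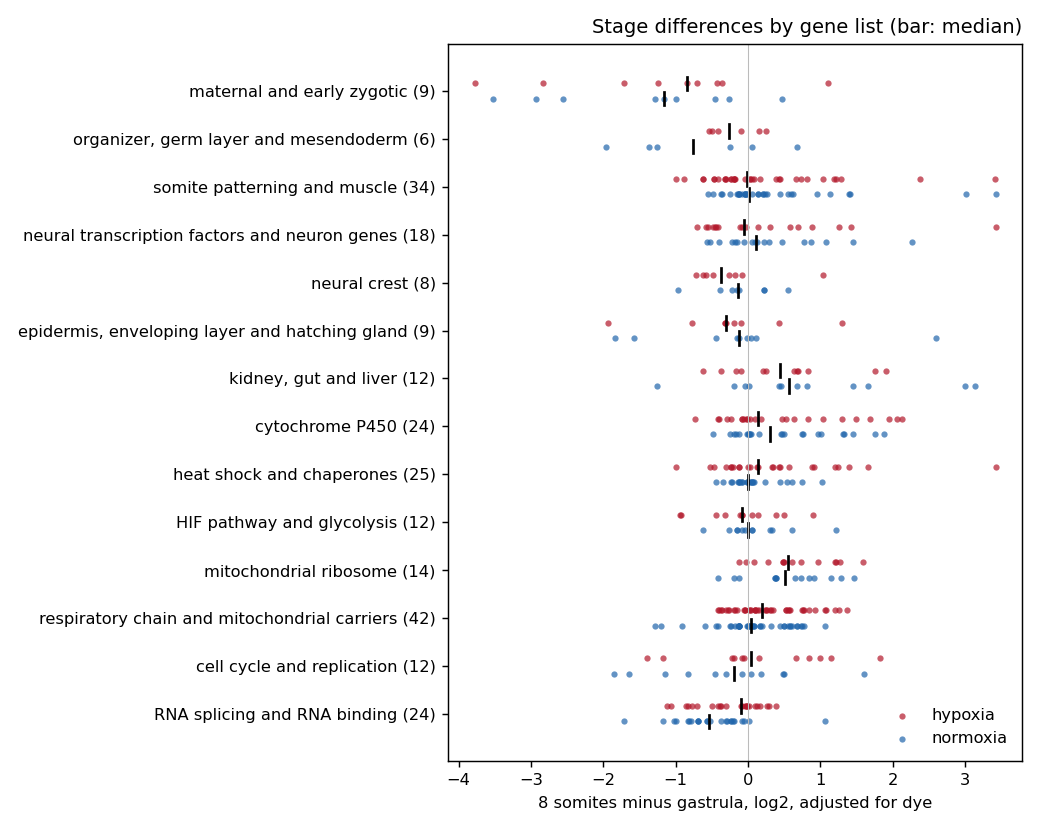
Stage difference (log2, adjusted for dye; horizontal axis) of every measured member of 14 gene lists, in hypoxia (red) and normoxia (blue), with the list's median as a black bar and the number of members in brackets. In hypoxia the medians run from -0.84 for maternal and early zygotic genes to 0.54 for the mitochondrial ribosome.

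Other cell type lists had 0 calls, where 0.906% of all named genes rose and 0.189% fell. Of 14 blood, vessel and heart genes 11 lay below 0, where 1692 of all 2650 named genes did. The median of these 14 was -0.09. The hyaluronan synthase gene has2 had 9.03 in segmentation embryos, against 9.92 and 9.59 in gastrulae (-0.74 ± 0.63), and the blood stem cell factor gene runx1 had 9.28 in segmentation embryos, against 9.7 and 10.09 in gastrulae (-0.73 ± 0.24). The myeloid factor gene spi1b had 8.7 in segmentation embryos, against 8.31 and 8.09 in gastrulae (0.55 ± 0.23). Of 7 notochord and axial mesoderm genes 4 lay above 0, with a median of 0.14. In normoxia 2 of the blood, vessel and heart genes fell (3.21% of all named genes did), among them the transcription factor gene ets2, by 1.16, which differed by -0.61 ± 0.26 in hypoxia.

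Signalling lists held few calls, where 0.906% of all named genes rose and 0.189% fell. Of 24 Wnt and polarity genes 1 rose, fzd10, with 11.6 in segmentation embryos, against 9.25 and 9.24 in gastrulae. The ligand gene wnt4 had 9.86 in segmentation embryos, against 7.84 and 7.68 in gastrulae (2.13 ± 0.39, limma adjusted p = 0.078), and the Rac gene rac1b lay lower by a difference of -1.12 ± 0.24, against gastrula values of 11.27 and 11.05. Of 16 Bmp, Nodal and TGF-beta genes 1 rose, fstl1a, and the Bmp pseudoreceptor gene bambib lay 2.14 ± 0.42 higher without passing. The lists for Notch (11 genes), Hedgehog and cilia (10), Fgf (10) and retinoic acid (18) had 0 calls. The Notch inhibitor gene numb differed by -1.21 ± 0.34, and rbp5, of retinoid binding, by 2.01 ± 0.31 (limma adjusted p = 0.052).

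The heat shock gene hsp70.3 (NM_131397), an inducible chaperone gene with near-identical copies that the row may also bind, was the 1 riser among 25 heat shock and chaperone genes. It had 11.8 in segmentation embryos, against 8.35 and 8.37 in gastrulae, a rise of 3.43 ± 0.23 (limma adjusted p = 0.016). The 4 normoxic arrays lay between 8.74 and 8.78, and its stage difference there was -0.01 ± 0.17. The Hsp90 cochaperone gene chordc1a had 10.27 in segmentation embryos, against 8.97 and 9.03 in gastrulae (1.40 ± 0.28, limma adjusted p = 0.094). The Hsp110 family gene hspa4a had 10.7 in segmentation embryos, against 9.93 and 8.41 in gastrulae (1.65 ± 0.73). The chaperonin gene cct2 had 13.19 in segmentation embryos, against 12.29 and 11.85 in gastrulae (1.24 ± 0.49). In normoxic segmentation embryos and gastrulae, hspa4a averaged 10.99 and 11.11, and cct2 14.1 and 13.37. For both genes the hypoxic segmentation array lay below the normoxic segmentation arrays, and the hypoxic gastrula arrays lay below the normoxic gastrulae. The list's median was 0.14, with 15 of 25 above 0, where 958 of all 2650 named genes were. Of all named genes 0.906% rose.

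Of 124 listed HIF pathway and glycolysis genes 12 were measured, with a median of -0.08 (0.02 after median centring). Of these 12 genes 0 passed, where 0.906% of all named genes rose and 0.189% fell. The mitophagy gene bnip3, a HIF target, had 8.8 in segmentation embryos, against 9.79 and 9.67 in gastrulae, so the hypoxic gastrulae held the higher level (-0.93 ± 0.46, limma adjusted p = 0.44). In normoxia bnip3 had 8.51 and 7.79 in segmentation embryos, against 8.41 and 7.79 in gastrulae (0.05 ± 0.35). The HIF antagonist gene cited2 had 10.41 in segmentation embryos, against 11.68 and 11.16 in gastrulae (-0.94 ± 0.38). On the other side, insig1 had 9.82 in segmentation embryos, against 8.77 and 8.95 in gastrulae (0.89 ± 0.4). The gene plod2 had 8.59 in segmentation embryos, against 7.85 and 8.28 in gastrulae (0.49 ± 0.31). None of these differences passed. Within the list 5 members lay above 0 and 7 below.

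Lists of mitochondria, protein synthesis, secretion and RNA handling held 1 call. Of 14 mitochondrial ribosome genes 12 lay above 0, with a median of 0.54 against 0.52 in normoxia, led by mrps14 with 11.98 in segmentation embryos, against 11.16 and 10.16 in gastrulae (1.59 ± 0.33, limma adjusted p = 0.10). Of 42 respiratory chain and carrier genes 29 lay above 0 (median 0.20), and of 18 translation factors and tRNA synthetases 14 did (median 0.36). Of 39 genes of the endoplasmic reticulum and secretion 1 rose, rpn2, and 5 lay 1 log2 unit above both gastrulae. Over all named genes 0.906% rose and 3.40% lay that far above both. Of 24 splicing and RNA-binding genes 17 lay below 0, where 1692 of all 2650 named genes did. The median of these 24 was -0.10 against -0.54 in normoxia.

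Of 12 cell cycle and replication genes 0 passed and 6 lay on each side of 0. Over all named genes 0.906% rose and 0.189% fell. The G1 cyclin gene ccnd2a had 10.49 in segmentation embryos, against 9.11 and 8.71 in gastrulae (1.82 ± 0.43), while the mitotic cyclin gene ccna2 had 13.71 in segmentation embryos, against 15.45 and 14.93 in gastrulae (-1.40 ± 0.32; limma adjusted p = 0.14 and 0.13). In normoxia these differed by 1.60 and -1.86.

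Among metabolic and turnover lists, the antioxidant and iron list (13 genes, median -0.01) had its widest difference in the peroxiredoxin gene prdx6, with 10.98 in segmentation embryos, against 13.08 and 12.51 in gastrulae (-1.62 ± 0.26, limma adjusted p = 0.058). The glutathione peroxidase genes gpx7 (1.12 ± 0.25) and gpx4b (1.08 ± 0.36) lay on the other side. In normoxia all 3 genes passed, prdx6 by -2.31, gpx7 by 1.88 and gpx4b by 1.42. Among 26 autophagy and lysosome genes, the autophagosome gene map1lc3b had 12.12 in segmentation embryos, against 14.06 and 13.02 in gastrulae (-1.28 ± 0.45), and the mitophagy receptor gene fundc1 had 12.47 in segmentation embryos, against 11.51 and 10.68 in gastrulae (1.59 ± 0.35). The zinc exporter gene slc30a1b stood highest among 62 solute carriers, with 11.44 in segmentation embryos, against 9.58 and 9.89 in gastrulae (1.68 ± 0.32, limma adjusted p = 0.085), while 44 of the 62 lay below 0. None of these genes passed in hypoxia, where 0.906% of all named genes rose and 0.189% fell. Of all 2650 named genes 1692 lay below 0.

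The lists for apoptosis and p53 (9 genes, median -0.25), immediate early genes and stress kinases (6, -0.20), proteasome and ubiquitin (43, -0.05), chromatin and histones (19, 0.13), ribosomal proteins and ribosome biogenesis (16, 0.13) and the cytoskeleton (26, -0.08) had 0 calls. Of 52 genes of extracellular matrix and adhesion 1 rose, fstl1a again, and 37 lay below 0, where 1692 of all 2650 named genes did. Of all named genes 0.906% rose.

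Signal level moved with the hypoxic difference. The rows were divided by mean level into 10 bins of equal size. The median plain difference was -0.18 in bins 4 and 5, 0.17 in bin 9 and -0.02 in bin 10. In normoxia it ran from -0.10 to -0.04. After quantile normalization again the hypoxic medians ran from -0.10 to -0.03. After that normalization the list medians were 0.46 for the mitochondrial ribosome and 0.27 for translation, against 0.54 and 0.36 as deposited. The part of signal level in these medians was not tested.

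**Figure D3:**
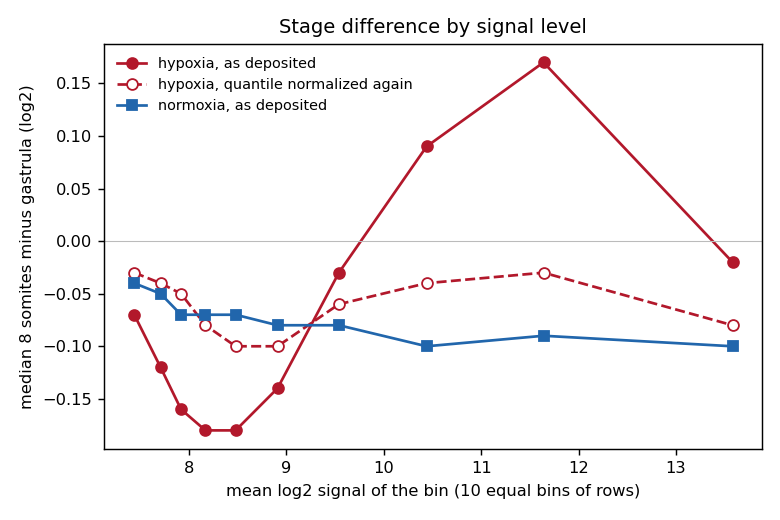
Median segmentation minus gastrula difference (log2, vertical axis) of rows in 10 equal bins of mean log2 signal (horizontal axis), for hypoxia as deposited (filled red), hypoxia after quantile normalization again (open red) and normoxia as deposited (blue). The hypoxic line as deposited runs from -0.18 in bins 4 and 5 to 0.17 in bin 9, and the other lines stay between -0.10 and -0.03.

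Against hypoxic gastrula replicate 1 alone 2424 rows were higher and 1763 lower by 1 log2 unit on the segmentation array, and against replicate 2 alone 3539 were higher and 2086 lower. Between the gastrula replicates themselves 622 rows were higher and 901 lower in replicate 2 by that amount. Gastrula replicate 1 carries Cy3, while replicate 2 and the segmentation array carry Cy5. Replicate and dye thus cannot be told apart in these plain counts. Of named genes, 103 were higher and 90 lower against replicate 1, and 163 were higher and 74 lower against replicate 2.

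The hypoxic stage difference was then set beside the normoxic one, with plain differences, which share no array. Pearson's r between them was 0.811 over all 37157 rows, and Spearman's rho was 0.612. Over the 2650 named genes r was 0.761 and rho 0.604. These are correlations across genes, which are not independent replicates, and the sources used here do not say which samples, if any, were hybridised together. With any 1 replicate standing for its group, r over all rows lay between 0.724, with hypoxic gastrula replicate 2, and 0.840, with hypoxic gastrula replicate 1. The replicates of a group also differ in dye. The slope of the hypoxic on the normoxic difference was 0.719, and the SD of the differences was 0.758 in hypoxia and 0.855 in normoxia. After quantile normalization again the slope was 0.760, with SDs of 0.781 in hypoxia and 0.831 in normoxia. With any 1 replicate standing for its group the slope lay between 0.619 and 0.741. Noise in the normoxic difference can itself lower such a slope, and what lies behind its size was not tested.

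Of the 2141 rows 1 log2 unit above both hypoxic gastrulae, 2091 (97.7%) were also higher at segmentation in normoxia, where 40.2% of all rows were. Their median difference was 1.80 in hypoxia and 1.86 in normoxia. Of the 916 rows below both, 892 (97.4%) were also lower in normoxia, where 59.8% of all rows were, with medians of -1.60 in hypoxia and -1.71 in normoxia. Picking on the normoxic side gave smaller hypoxic values. The 2308 rows (6.21%) higher in the normoxic test had a median of 1.48 in hypoxia and 1.87 in normoxia, and 2280 of them (98.8%) had the same sign in hypoxia. The 1441 rows (3.88%) lower in the normoxic test had a median of -1.05 in hypoxia and -1.67 in normoxia, and 1391 (96.5%) had the same sign. The sets picked in hypoxia did not have smaller medians in normoxia, while those picked in normoxia had smaller ones in hypoxia. The picking rules were unlike. The hypoxic sets needed a gap of at least 1 log2 unit, and the normoxic sets passed the test with no limit on size. Picking for large values in 1 condition can itself make values in the other smaller. The paired medians are therefore read only with the way each set was picked. Of the rows called in hypoxia, 696 higher ones (95% of the hypoxic and 30.2% of the normoxic calls) and 153 lower ones (97.5% of the hypoxic and 10.6% of the normoxic calls) were also called in normoxia. Both tests come from 1 fit and share each row's spread and dye term, so overlaps between their calls are not independent agreement. The median SE was 0.291 for the hypoxic difference and 0.226 for the normoxic one. Among named genes 101 (3.81%) were higher and 85 (3.21%) lower in the normoxic test.

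Of the 24 named genes that rose in hypoxia, 22 also rose in the normoxic test and 23 had the same sign. The exceptions were hsp70.3 and btc, an epidermal growth factor family gene. The btc row had 9.78 in hypoxic segmentation embryos, against 7.45 and 7.65 in hypoxic gastrulae, and 9.17 and 8.92 in normoxic segmentation embryos, against 8.01 and 8.40 in normoxic gastrulae. All 5 that fell also fell in normoxia.

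**Figure D4:**
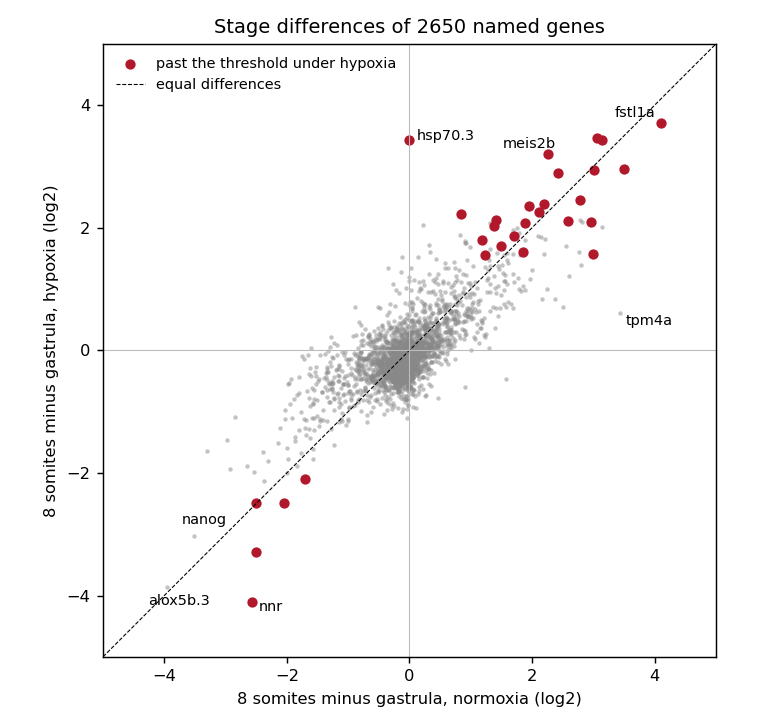
Plain segmentation minus gastrula difference (log2) of the 2650 named genes in hypoxia (vertical axis) and in normoxia (horizontal axis); red points passed the test in hypoxia and the dashed line marks equal differences. Most red points lie near the line, hsp70.3 lies at about 0 in normoxia, and tpm4a lies far to the right of the line.

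The test of the difference between the stage differences had 0 rows past the threshold, 0 higher and 0 lower (0%), in limma with dye (smallest adjusted p = 0.875). It had 1569 rows at an unadjusted p under 0.05, where 1858 are expected by chance, and without dye 1933 and again 0 past the threshold. The median of this difference over all rows was -0.03 as deposited and 0.09 after median centring. The genes with the smallest p are given as values that did not pass.

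The first of these was hsp70.3, with a difference of 3.43 ± 0.29 between its stage differences (unadjusted p = 7.8e-05, limma adjusted p = 0.88). The vesicle-tethering gene trappc6b had 10.68 in hypoxic segmentation embryos, against 9.59 and 9.06 in hypoxic gastrulae, and averaged 11.49 in normoxic segmentation embryos and 11.85 in normoxic gastrulae (1.94 ± 0.34). The nucleotide hydrolase gene nudt2 had 10.01 in hypoxic segmentation embryos, against 9.35 and 9.25 in hypoxic gastrulae, and averaged 10.24 in normoxic segmentation embryos and 11.13 in normoxic gastrulae (1.72 ± 0.37). For both genes the hypoxic gastrula arrays were the lowest. For nudt2 the normoxic gastrula arrays, at 11.15 and 11.1, also stood above every segmentation array. For chordc1a (1.53 ± 0.35) the hypoxic segmentation array was the high one. For btc (1.25 ± 0.29) the hypoxic segmentation array lay above the normoxic segmentation arrays and the hypoxic gastrula arrays lay below the normoxic gastrulae. The others on this side were rbm4.3 (1.44 ± 0.35), zgc:101663 (1.61 ± 0.39) and pth1b (1.51 ± 0.38). In that order, they differed between stages by 0.26, -0.15 and -0.42 in hypoxia, and by -1.18, -1.75 and -1.93 in normoxia.

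On the lower side the tropomyosin gene tpm4a had 11.64 in hypoxic segmentation embryos, against 10.89 and 11.16 in hypoxic gastrulae, and averaged 12.09 in normoxic segmentation embryos and 8.66 in normoxic gastrulae (-2.77 ± 0.56). Its hypoxic gastrula values stood close to the segmentation values. The glycosyltransferase gene b3gnt3.1 had 10.42 in hypoxic segmentation embryos, against 8.81 and 9.25 in hypoxic gastrulae, and averaged 11.47 in normoxic segmentation embryos and 8.67 in normoxic gastrulae (-1.61 ± 0.29). The synuclein gene sncb (-1.60 ± 0.35) had 9.64 in hypoxic segmentation embryos, against 9.99 and 10.48 in hypoxic gastrulae, and was higher at segmentation in normoxia by 0.91. The protease inhibitor gene serpinf2b (-1.61 ± 0.38) and the extracellular superoxide dismutase gene sod3a (-1.25 ± 0.30) rose in normoxia, by 2.51 and 1.3, and differed in hypoxia by 0.91 and 0.05. The rest of this side were fabp1b.1 (-1.24 ± 0.31), calhm6 (-1.48 ± 0.41) and hao2 (-1.35 ± 0.40).

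**Figure D5:**
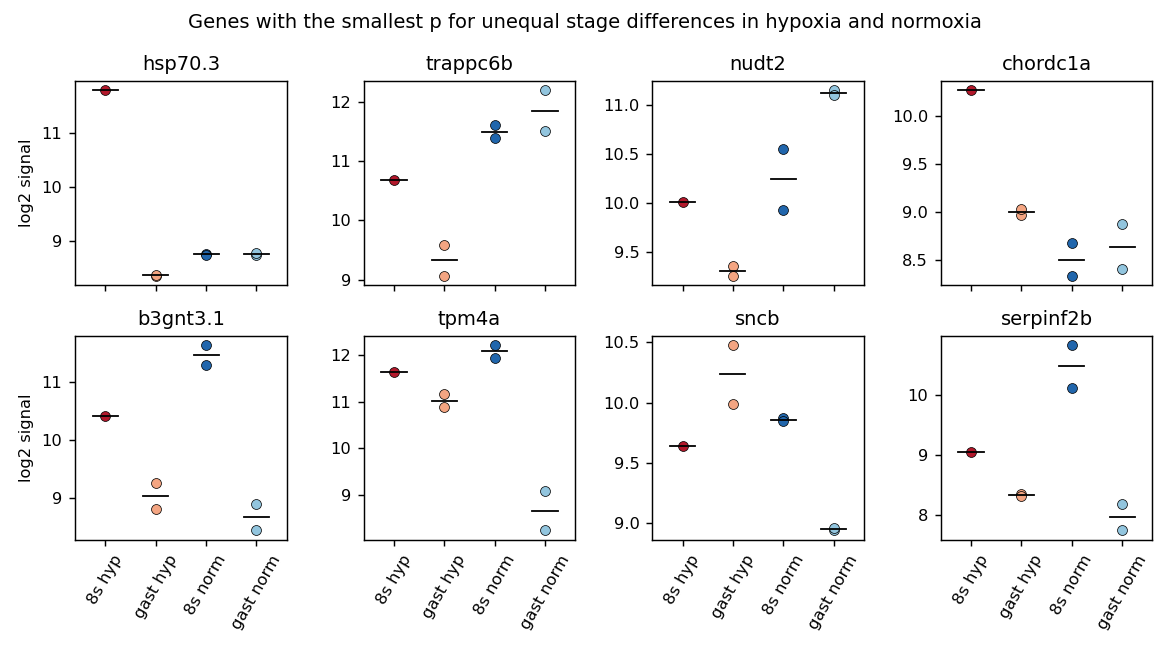
Log2 signal (vertical axis) on every array for the first 4 genes, by p, on either side of the test of the difference between the stage differences, with hypoxic segmentation (8s hyp), hypoxic gastrula (gast hyp), normoxic segmentation (8s norm) and normoxic gastrula (gast norm) arrays from left to right and bars at group means. For hsp70.3 the hypoxic segmentation array alone is high, and for tpm4a the normoxic gastrula arrays alone are low; none of the 8 genes passed the test.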

How the data were processed

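The submitters' processing notes name RMA, without a version, as the summary behind the authors' deposited log2 values. No source states the log base; values between 6.85 and 15.96 were taken as log2. The array design was not given in the sources used here. Rows were named by RefSeq transcript without version, through a gene table of assembly GRCz12tu. Where several rows matched 1 gene, the row of highest mean signal was taken. The model was limma 3.58.1 under R 4.3.3, with the 4 groups and dye, empirical Bayes moderation, two-sided tests and Benjamini-Hochberg adjustment over all 37157 rows. It left 2 residual degrees of freedom.

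The members and lists were chosen with earlier results of these data known. By the naming rule, the text drew on the 12 largest called differences each way beyond both gastrula arrays, or, where fewer than 6 passed, the 10 largest beyond both gastrula arrays by 1 log2 unit, then the 8 smallest p in each direction for the difference between stage differences, up to 4 members of each list, and bnip3, hsp70.3, nanog and meox1. The number of arrays limits the precision. Replicate numbers were not used to pair the samples in the model. Deviations of same-numbered samples correlated at 0.540 between the normoxic groups, where same-numbered samples carry opposite dyes, so these samples deviated alike in part. The correlation was -0.146 between the gastrula groups, where same-numbered samples share a dye. It was -0.273 between hypoxic gastrula and normoxic segmentation samples, where same-numbered samples carry opposite dyes. Whether same-numbered samples were handled together was not tested.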

Additional observations from a re-analysis of the deposited data

How the results depend on the processing

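Counts of rows under hypoxia were 733 higher and 157 lower. Without dye they were 1171 and 384, and with an adjusted p of 0.1 they were 1354 and 380. The lower count was 247 after quantile normalization again and 239 without the lowest 25% of rows. After quantile normalization again without dye, a setting chosen after seeing the data, the counts were 1352 and 662. The replicate block beside dye gave 0 and 0 under hypoxia and 862 lower rows in normoxia; in place of dye it changed no count by over 1.5 times. The hypoxic arrays alone gave 0 and 0. Leaving out 1 array gave 0 to 1856 higher and 0 to 712 lower rows under hypoxia: 1856 and 712 without either gastrula normoxia array, and 0 without any other. In normoxia leaving out 1 array gave 531 to 2742 higher and 88 to 3294 lower rows, and the lower count was 2543 at an adjusted p of 0.1 and 2276 after quantile normalization again without dye. At 2 log2 units, 698 rows lay above and 196 below both hypoxic gastrulae. The difference between stage differences had 0 rows in every setting run. Of the 29 named genes called, 24 were called without dye (pls3, meox1, cetn3, fabp1b.1 and selenow2b were not), 19 with the replicate block in place of dye, 25 after quantile normalization again (not cetn3, fabp1b.1, cyp2aa3 and ppa2), 22 with an intensity trend and 20 with a robust prior. All 29 kept their direction in each setting run, which the shared segmentation array, beyond both gastrula values for each gene, all but fixed in advance.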
